A study of Mus musculus with 6 samples.

Results

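The regions described here are the stretches of DNA whose methylation differed with age in lung endothelial cells (EC) and whose midpoint lay inside an exon, away from any transcription start site. They were taken from the list of differentially methylated regions (DMRs) that was deposited for a comparison of EC from infant mice, 8 to 10 days old, with EC from young adult mice, 8 to 12 weeks old. Each age was represented by 3 samples of C57BL/6N lung EC, which were sorted as CD31 and CD34 positive cells without the markers PTPRC, LYVE1, LY76 and PDPN, and no treatment or engineered allele was named for either age. Methylation was read by tagmentation-based whole-genome bisulfite sequencing. A region entered the set when its midpoint fell in an exon of a curated RefSeq transcript of the mm10 mouse genome and lay more than 1 kb from every annotated start site. Of the 18333 regions in the list, 18168 were on the autosomes and 1154 of these were such exonic regions. Methylation was lower in young adult EC in 554 of them (loss) and higher in 600 (gain). Of the 1154 regions, 193 did not lie wholly within 1 exon, so their levels include flanking sequence. In 134 the midpoint was not exonic in every curated transcript that spans it.

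The list gave 1 mean methylation level per age and region, and not the values of the single mice. Loss and gain are therefore the authors' calls, made with a test per CpG between 3 and 3 samples, and the spread between mice could not be set beside any value below. All tests given here compare regions with regions. Neighbouring regions and regions of 1 gene are not independent of each other, so such p-values describe the list and not the variation between mice. The read depth behind each region was not analysed here, beyond the authors' minimum of 8-fold coverage per CpG.

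CpG methylation is written by DNA methyltransferases and removed either by TET enzymes or by dilution when cells divide. In most mammalian cells the bodies of transcribed genes, exons included, are methylated, while CpG islands at start sites are kept free of methylation. CpGs within coding exons are also part of codons, because the arginine codons of the CGN type and the NCG codons carry them, and developmental regulator genes such as the Hox genes often hold CpG islands that extend into their exons. Infant lung EC still divide and build vessels, whereas EC of the adult lung are largely quiescent.

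The sequences of coding regions with the largest differences, the most CpGs or an overlap with a MassARRAY amplicon of the study are shown first, since they carry both directions of change within codons. They are given 5′ to 3′ on the coding strand of the gene, from the GRCm38/mm10 assembly, with every CpG in capitals. Losses are shown from Tnrc6a (chr7:123162589-123162689, plus strand), Parp10 (chr15:76240050-76240102, minus strand), Plxna1 (the central 300 bases, chr6:89356997-89357296, minus strand), Tmem100 (300 coding bases, chr11:90035349-90035648, plus strand) and Smad6 (the coding stretch at the midpoint, chr9:64007531-64007608, minus strand).
Tnrc6a: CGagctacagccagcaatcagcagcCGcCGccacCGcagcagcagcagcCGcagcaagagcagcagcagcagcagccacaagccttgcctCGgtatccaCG
Parp10: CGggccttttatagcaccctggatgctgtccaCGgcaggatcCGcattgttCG
Plxna1: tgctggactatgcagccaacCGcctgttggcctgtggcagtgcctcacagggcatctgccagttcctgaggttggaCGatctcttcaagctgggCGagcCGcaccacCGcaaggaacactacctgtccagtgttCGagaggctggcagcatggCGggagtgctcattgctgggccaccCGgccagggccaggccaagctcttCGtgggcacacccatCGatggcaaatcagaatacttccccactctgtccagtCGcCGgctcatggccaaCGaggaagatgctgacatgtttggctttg
Tmem100: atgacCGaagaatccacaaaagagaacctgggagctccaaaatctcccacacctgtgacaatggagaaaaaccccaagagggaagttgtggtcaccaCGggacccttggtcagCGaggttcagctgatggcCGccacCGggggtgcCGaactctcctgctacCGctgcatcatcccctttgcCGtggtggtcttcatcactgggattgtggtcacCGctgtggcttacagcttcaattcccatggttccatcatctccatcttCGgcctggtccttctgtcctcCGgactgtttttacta
Smad6: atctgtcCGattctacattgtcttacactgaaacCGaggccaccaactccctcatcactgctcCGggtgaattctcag

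Gains are shown from Cdkn2b (chr4:89307245-89307267, minus strand), Nr2f2 (chr7:70357814-70358017, minus strand) and Cd93 (300 bases around the midpoint, chr2:148442008-148442307, minus strand).
Cdkn2b: CGgagcagaacccaactgCGcCG
Nr2f2: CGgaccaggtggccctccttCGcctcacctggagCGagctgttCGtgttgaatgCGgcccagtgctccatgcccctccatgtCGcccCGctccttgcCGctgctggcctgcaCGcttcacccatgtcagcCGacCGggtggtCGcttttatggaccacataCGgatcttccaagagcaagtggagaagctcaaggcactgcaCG
Cd93: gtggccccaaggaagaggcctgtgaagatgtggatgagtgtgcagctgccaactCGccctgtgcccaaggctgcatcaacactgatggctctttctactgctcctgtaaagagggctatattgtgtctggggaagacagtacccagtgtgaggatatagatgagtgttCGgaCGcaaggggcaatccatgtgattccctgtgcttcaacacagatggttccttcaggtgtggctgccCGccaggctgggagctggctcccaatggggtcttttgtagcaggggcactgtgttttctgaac

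The gained stretch of Nr2f2 holds 14 CpGs in 204 bases, whereas the 300 bases shown of Cd93 hold 4. The lost Tnrc6a stretch, in exon 5 of 24, runs through repeated cag and cagc units between its 7 CpGs. The lost stretch of Plxna1 holds 13 CpGs in the 300 bases shown, of 24 in the whole region.

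Exonic regions were split nearly evenly between loss and gain, and this split set them apart from regions between genes. Methylation was lost in 48.0% of the exonic regions (95% Wilson interval 45.1 to 50.9%), against 46.3% of all autosomal regions. Of the 10415 intronic regions at the same distance from start sites 59.7% were losses, and of the 5905 intergenic regions 23.0%. Against the intergenic regions the odds of loss were higher in exons (odds ratio 3.08, 95% interval 2.70 to 3.52, two-sided Fisher's exact test over regions, p = 1.42e-62). Against the intronic regions they were lower (odds ratio 0.623, 0.55 to 0.705, Fisher's exact test, p = 2.69e-14). The difference from introns rested on genes that hold many regions. With 1 region per gene and location, the one of largest difference, 46.2% of 896 exonic and 48.0% of 3671 intronic regions were losses and the test missed the threshold (odds ratio 0.932, 0.802 to 1.08, Fisher's exact test, p = 0.351). With the first region along the chromosome in its place the odds ratio was 1.08 (0.932 to 1.26, Fisher's exact test, p = 0.294). The contrast with intergenic regions kept its direction and its side of the threshold in both.

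**Figure D1:**
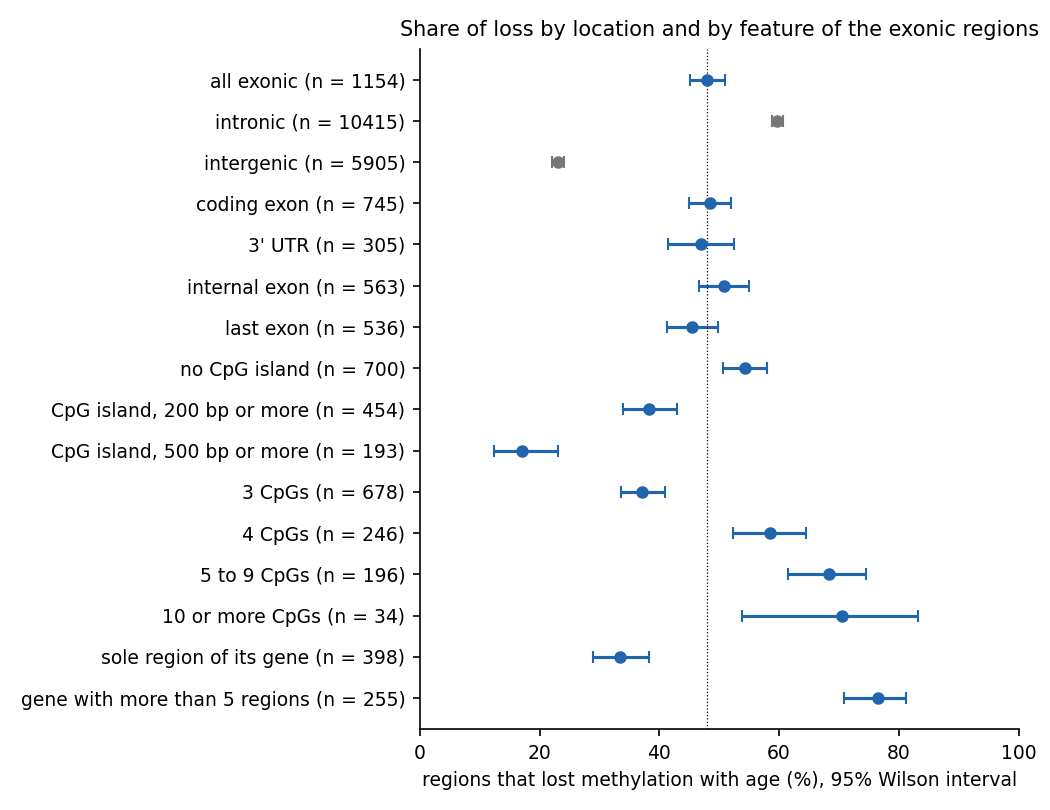
Share of regions that lost methylation with age (horizontal axis, percent) for exonic regions, for intronic and intergenic regions (grey) and for subsets of the exonic regions, each with its number of regions; points are shares, bars 95% Wilson intervals over regions, and the dotted line marks all exonic regions at 48.0%. The share was 17.1% inside CpG islands of at least 500 bp and 76.5% in genes with more than 5 regions.

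The losses were larger than the gains. In the exonic losses methylation had a median of 63.9% in infant EC and 27.8% in young adult EC, and the median difference was -32.1 percentage points (quartiles -38.6 and -26.7). In the exonic gains the medians were 44.7% and 70.7%, with a median difference of 22.2 points (17.0 and 28.4). The differences ran from -64.8 to -11.1 points among the losses and from 10.2 to 48.0 points among the gains. A difference of at least 30 points was found in 456 exonic regions (39.5%), against 35.2% of all autosomal regions, and 338 of the 456 (74.1%) were losses. These sizes were part of what selected the regions and carry no test. The share of losses among all autosomal regions with such large differences was not computed here. The study reported more losses than gains over its whole list at its stricter threshold for the difference. The excess of losses among large differences is therefore not particular to exons. Intronic regions had much the same medians, at -32.9 points for losses and 20.6 points for gains.

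**Figure D2:**
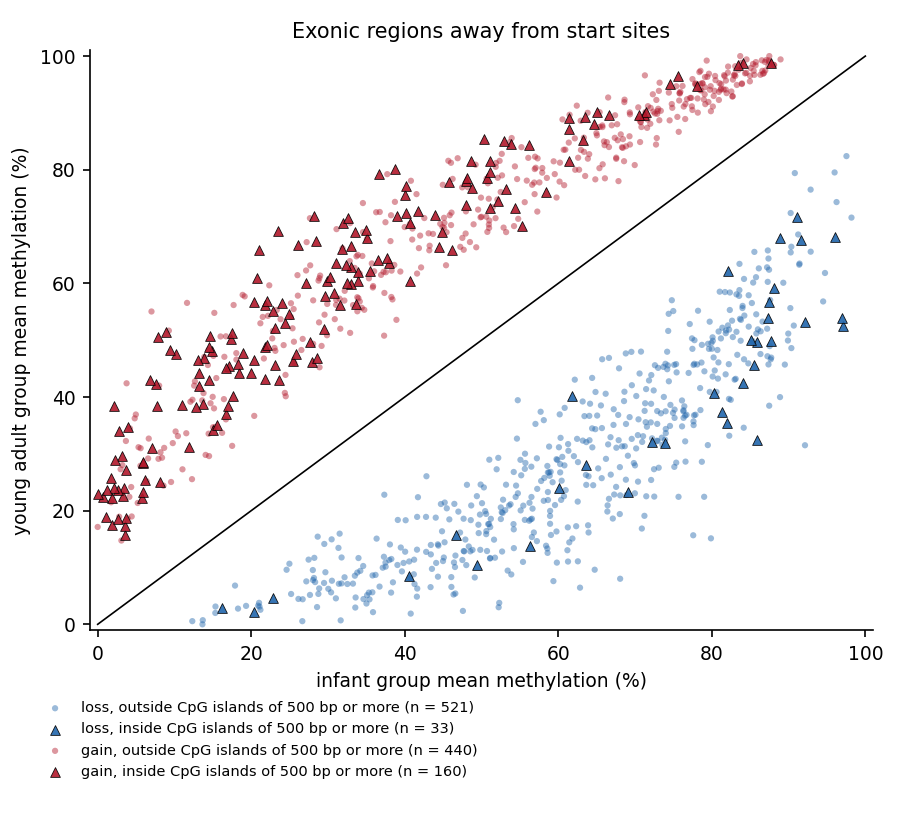
Mean methylation of each of the 1154 exonic regions in infant EC (horizontal axis, percent) and young adult EC (vertical axis, percent); each point is 1 region, blue for loss and red for gain, and triangles mark regions in CpG islands of at least 500 bp. Losses lie below the line of equal levels and gains above it, and most of the island regions are gains that start at low infant levels, with a median of 26.7%.

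Gains and losses differed in their starting levels, which bear on the direction itself: the minimum difference of 10 points leaves a region near 0% no room to lose and one near 100% none to gain. In infant EC 130 of the 600 gains (21.7%) had a mean below 20%, against 9 of the 554 losses. These 130 gains went from a median of 9.67% to 34.7%. Among the 139 exonic regions that started below 20%, 93.5% were gains, whereas among the 180 that started at 80% or more, 65.6% were losses. These shares therefore carry no test. The 62 gains of the upper class had a median difference of 12.6 points. Intronic gains started below 20% in 14.4% and intergenic gains in 11.3%.

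Direction varied with CpG islands, the stretches of dense CpGs that are usually unmethylated. An exonic region was counted in an island when it overlapped a window of at least 200 bp with at least 50% GC whose CpGs reached more than 0.6 of the number expected from its base composition. Of the 454 exonic regions in such islands 38.3% were losses, against 54.3% of the 700 outside (odds ratio 0.524, 0.408 to 0.670, two-sided Fisher's exact test with Benjamini-Hochberg adjustment over 6 comparisons, adjusted p = 8.69e-07). Gains in these islands started at a median of 32.9% in infant EC, against 56.0% outside, and losses at 65.3% against 63.2%. As the starting level bears on direction, the test cannot separate islands from starting levels. Under the stricter definition of 500 bp, 55% GC and 0.65 of the expected number, 33 of 193 regions (17.1%, 12.4 to 23.0%) were losses and the odds ratio was 0.174 (0.114 to 0.261). Among regions with at least 5 CpGs the odds ratio was 0.712 (0.382 to 1.31) and missed the threshold at an adjusted p of 0.303. The 160 gains in strict islands rose from a median of 26.7% to 56.7%, while the 33 losses there started at 82.1% and fell to 40.6%. Strict islands held 26.7% of exonic gains (23.3 to 30.3%) and 1.96% of intronic gains (1.58 to 2.42%). They held 5.96% of exonic losses and 0.289% of intronic losses, so exons exceeded introns in both directions. Exonic regions were also richer in GC, with a median of 53.0% around losses and 56.0% around gains, against 48.0% around both kinds of intronic region.

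**Figure D3:**
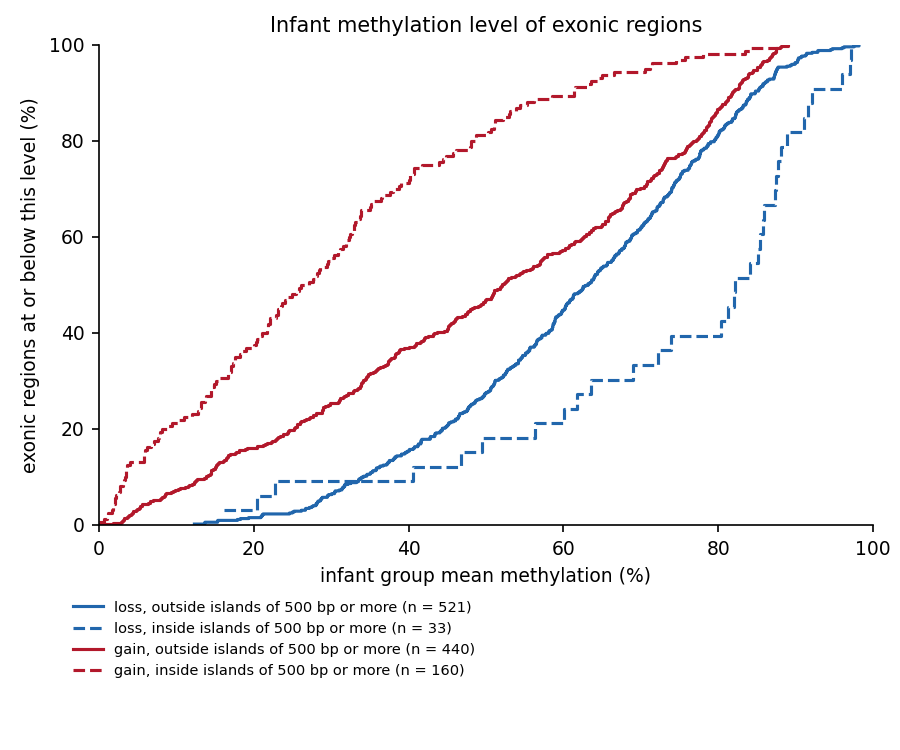
Cumulative share of exonic regions (vertical axis, percent) at or below a given infant methylation level (horizontal axis, percent), for losses (blue) and gains (red) inside (dashed) and outside (solid) CpG islands of at least 500 bp. The island gains start lowest, with a median of 26.7%, and the 33 island losses highest, with a median of 82.1%.

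No difference in direction was detected between the parts of the exon. Midpoints lay in coding sequence in 745 regions, in the 3' UTR in 305, in the 5' UTR in 20 and in non-coding transcripts in 84. Losses made up 48.5% of the coding and 46.9% of the 3' UTR regions (odds ratio 1.06, 0.808 to 1.40, Fisher's exact test, adjusted p = 0.816). Internal exons held 563 regions with 50.8% losses, and last exons held 536 with 45.5%. Neither differed from the other exonic regions at the threshold (adjusted p = 0.203 and 0.249, Fisher's exact test). First exons held only 18 regions and single-exon transcripts 37, as the rule left out everything within 1 kb of a start site. Between 1 and 5 kb from the nearest start site 41.1% of 406 regions were losses, between 5 and 20 kb 52.9% of 427, and beyond 20 kb 50.2% of 321.

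Exonic regions were short and their losses held more CpGs. The median width was 83 bp for losses and 60 bp for gains, against 137 and 129 bp for intronic regions. The smallest number the authors allowed, 3 CpGs, was found in 45.5% of the losses and 71.0% of the gains. Intronic regions showed the same order, with 52.1% of losses and 78.1% of gains at 3 CpGs. The share of loss was 37.2% among the 678 regions with 3 CpGs, 58.5% among the 246 with 4, 68.4% among the 196 with 5 to 9 and 70.6% among the 34 with 10 or more. The 10 gains with 10 or more CpGs had a median difference of 39.5 points and the 24 losses one of -39.0 points. Repeats covered at least 50% of only 16 losses and 14 gains.

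Within coding sequence the CpGs of the regions were spread over the codon much as in coding sequence at large. In coding losses 37.4% of 1523 CpGs lay at codon positions 1 and 2, which is the arginine codon CGN, 24.6% at positions 2 and 3 and 38.1% across the border of adjacent codons. In coding gains the shares were 33.8%, 25.3% and 40.9% of 1268 CpGs, and over all curated autosomal coding sequence they were 34.4%, 25.8% and 39.8%. Among the NCG codons of losses the threonine codon ACG made up 31.0% and the alanine codon GCG 19.5%, against 24.5% and 29.0% over all coding sequence, and in gains they made up 24.3% and 29.0%. The CpGs of 1 region are not independent, and these shares carry no test.

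Exonic regions mostly went the same way as the other regions of their gene. The 1154 regions lay in 896 genes, of which 748 held 1 exonic region, 148 held at least 2 and 56 at least 3. Of the 148 genes, 81 held only losses, 59 only gains and 8 both. For 741 regions the other regions of the same gene body had a majority direction, and 657 of the 741 (88.7%, 86.2 to 90.8%) went with it. Counting only other regions more than 1 kb away the share was 85.1%. The same share was not computed over regions of other locations. Losses were the rule in genes with many regions. Of the 398 exonic regions that were the sole region of their gene 33.4% were losses (29.0 to 38.2%), and of the 255 in genes with more than 5 regions 76.5% (70.9 to 81.3%). Another region lay within 10 kb of 375 of the 554 exonic losses and of 283 of the 600 exonic gains. Among these, the nearest region had the same direction for 93.1% of the losses and 92.6% of the gains. Among intronic losses and gains with a region within 10 kb these shares were 94.5% and 84.9%.

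The largest single loss was in the 3' UTR of Tgds, a dehydratase gene, where methylation went from 79.9% to 15.1% over 3 CpGs. Tnrc6a, which encodes a scaffold of the microRNA silencing complex, followed, from 77.6% to 15.7% over the 7 CpGs printed above. Repeats covered 50.5% of that region. In Parp10, the gene of a mono-ADP-ribosyltransferase, the level went from 68.1% to 8.02%. The other 2 of the 5 largest losses lay in Neat1, the long non-coding RNA that builds paraspeckles, at 92.1% to 31.5% and at 79.0% to 22.4%. Each of these regions was at least 68.1% methylated in infant EC and at most 31.5% in young adult EC.

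The largest gain was in the coding part of exon 2 of Cdkn2b, which encodes the CDK inhibitor p15. Its 3 CpGs went from 7.01% to 55.1%. The 3' UTR of the same exon held a further gain that spanned 24 CpGs (chr4:89306437-89307213) and went from 11.6% to 56.6%, a difference of 44.9 points. Both regions lie in the last exon of the gene, and both were below 12% in infant EC and above 55% in young adult EC. Further ones of the 5 largest gains were in the 3' UTR of Zfp697 (21.0% to 65.9% over 18 CpGs) and in the 3' UTR of the single exon of Zcchc3 (27.6% to 71.5%).

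By number of CpGs the losses were led by Plxna1, a semaphorin receptor gene, with 24 CpGs in exon 2 of 32 that went from 85.8% to 32.4%. A region of Pcdh1, a protocadherin gene, came next with 20 CpGs. Tmem100, an endothelial gene downstream of BMP9 and ALK1 signalling, followed with 18 CpGs that went from 59.8% to 10.9%, and 2 further regions of Pcdh1 held 15 CpGs each. After Cdkn2b and Zfp697, the gains were led by Nr2f2, the gene of the venous transcription factor COUP-TFII, with 14 CpGs (40.1% to 77.1%), and by Cd93, a gene of an endothelial surface glycoprotein, with 13 (4.21% to 34.5%). All 3 exonic regions of Cd93 began between 3.76% and 4.82% and ended between 34.5% and 42.4%.

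Of the genes with the most exonic regions 9 are described here, of which 5 held only losses and 4 only gains. Pcdh1 had 12 exonic losses, at 58.9 to 87.7% in infant EC and 17.7 to 53.8% in young adult EC, with differences of -46.6 to -33.5 points. All 18 regions in its whole body were losses. Neat1 had 6 losses along its single exon, with infant levels of 41.6 to 92.1% and young adult levels of 6.29 to 39.98%. Ace, the gene of the angiotensin-converting enzyme that is abundant on lung capillary EC, had 6 losses in coding exons, 2 of them in exon 7 and the others in the last exons of the gene. Its infant levels were 39.6 to 56.6% and its young adult levels 4.87 to 19.7%. Prickle1, a planar cell polarity gene, had 6 losses (49.6 to 96.0% against 17.5 to 71.7%) and Tmcc2 had 5 (60.4 to 97.1% against 21.9 to 59.2%). In Prickle1 the level stayed at 49.6% or more in 5 of the 6 regions in young adult EC.

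The 4 genes with gains began lower. Hoxb3 had 8 gains, 7 of them in coding sequence, at 0 to 33.0% in infant and 22.9 to 59.9% in young adult EC. Kcnh6, a gene of a voltage-gated potassium channel, had 6, at 13.1 to 22.1% against 35.1 to 56.9%. Nr2f2 had 5, at 24.0 to 60.5% against 56.6 to 88.9%. Zfp697 had 6, at 0.702 to 21.0% against 22.4 to 65.9%. The 12 other regions in the body of Zfp697 were all losses, and the exonic and other regions of that gene thus went opposite ways. Ace and Kcnh6 also went opposite ways while their nearest exonic regions were 31.2 kb apart on chromosome 11.

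**Figure D4:**
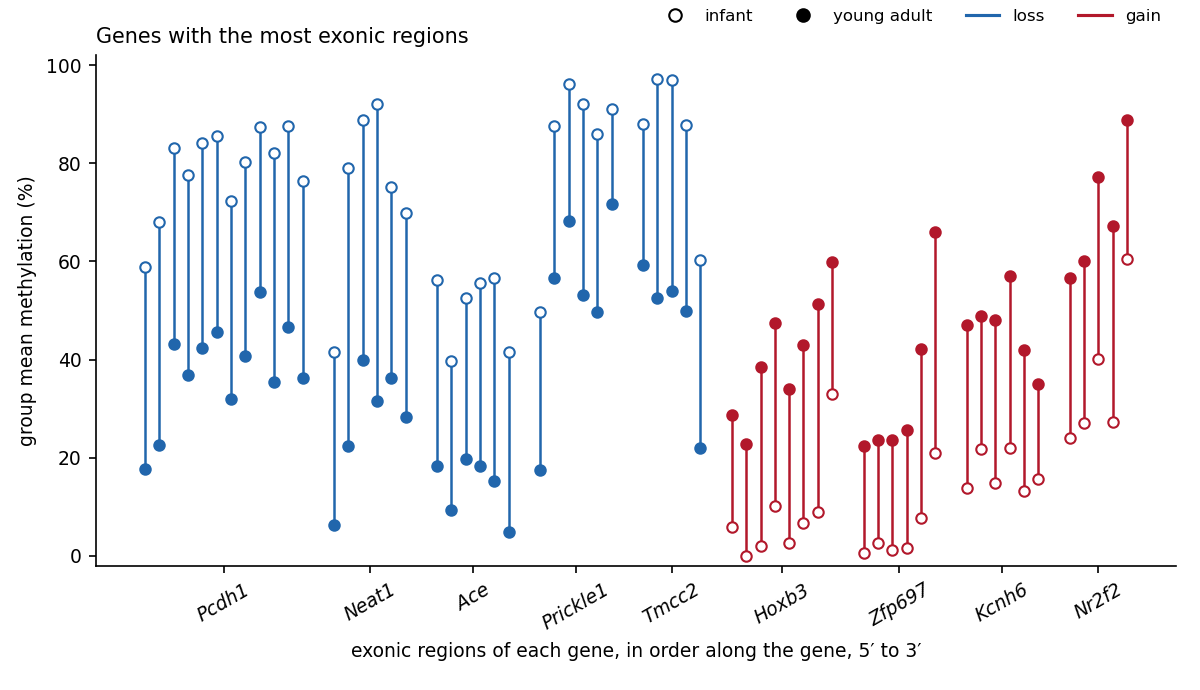
Mean methylation (vertical axis, percent) of every exonic region in 9 of the genes with the most of them, in order along each gene from 5′ to 3′; open circles are infant and filled circles young adult EC, joined in blue for loss and red for gain. The 6 regions of Ace end below 20% and the 6 of Kcnh6 start at 22.1% or less.

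Genes listed for vessel growth pathways held more losses than gains, beside 48.0% losses among all exonic regions and 76.5% among those in genes with more than 5 regions. Several of them belong to that class, such as Smad6 with 61 and Smad7 with 26 regions in the gene body, all losses. Over all autosomal genes 3.59% held an exonic region. The TGF beta family controls EC proliferation and vessel stability through receptors of the ALK type and SMAD proteins, and 7 of its 48 listed genes held 15 exonic regions, 14 of them losses (median difference -33.4 points, beside -32.1 over all exonic losses). Acvrl1, which encodes the EC receptor ALK1, had 4 coding losses, from infant levels of 61.3%, 35.8%, 35.3% and 21.2% to young adult levels of 11.05%, 5.63%, 5.58% and 2.56%. Of the inhibitory SMAD genes, Smad7 had 4 losses, the largest from 71.2% to 19.1%, and Smad6 had 3, the largest from 81.3% to 37.3%. The receptor gene Acvr1b and the co-repressor genes Ski and Skil had 1 loss each. The gain was in Ltbp3, which encodes a protein that binds latent TGF beta (24.4% to 53.0%). Bambi, which encodes a membrane-bound inhibitor of this family, was not on the list and was added after its values were seen: it held 3 gains, from 15.5%, 50.8% and 75.8% to 43.3%, 77.6% and 92.2%.

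Semaphorins guide axons and vessels through plexin and neuropilin receptors. In this group 9 of 29 genes held 15 exonic regions, with 12 losses and 3 gains. Beside Plxna1 the losses included Sema3c (53.9% to 8.78%), whose region of 585 bp had its midpoint in a 5' UTR exon of 141 bp. Further losses included Nrp1, a co-receptor gene for semaphorins and VEGF (87.4% to 45.7%), and 4 regions of Sema7a with differences of -39.4 to -27.3 points. The gains were in the plexin genes Plxnd1 (43.1% to 68.8% and 72.3% to 93.3%) and Plxnc1 (81.6% to 96.6%). Receptor genes of this group thus moved both ways, while the regions of the ligand genes were all losses.

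In the VEGF, angiopoietin and FGF group, which holds the main growth factor receptors of EC, 7 of 8 exonic regions were losses and lay in 3 receptor genes. Flt1, the gene of VEGF receptor 1, had 1 coding loss, from 86.4% to 51.6%, which was placed on a transcript of 30 exons. Its other losses, from 52.2% to 3.0% and from 47.8% to 12.8%, lay in the 3' UTR of a shorter transcript of 13 exons. Those regions were not exonic in every curated transcript that spans them. Kdr, the gene of VEGF receptor 2, had 3 coding losses, from 63.9%, 73.4% and 77.0% to 26.0%, 37.1% and 44.2%. Tek, the gene of the angiopoietin receptor, had 1 coding loss from 54.4% to 22.4%. Spry2, the gene of an inhibitor of receptor tyrosine kinase signalling, held the gain (34.4% to 55.7%). In NOTCH signalling, which sets tip and arterial cell fate, all 7 regions in 4 of 27 genes were losses, namely 4 in the ligand gene Dll4 (differences of -29.4 to -16.5 points) and 1 each in Notch1, Lfng and Maml3. Their median of -25.3 points was smaller than the -32.1 points of all exonic losses.

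Transcription factor genes held exonic regions of both directions. Of 31 listed endothelial factors 9 held exonic regions, 10 losses in 6 genes and 7 gains in 3. The losses included all 4 regions of Gata2 (infant levels 28.9 to 44.3%, young adult levels 3.66 to 8.38%), Klf4 (46.4% to 5.25%), Erg (50.6% to 15.9%), Epas1 (74.3% to 45.6%) and both regions of Sox7. The gains were the 5 of Nr2f2, 1 in Sox17, the gene of an arterial factor (16.0% to 50.7% in the 3' UTR), and 1 in Foxo3 (87.7% to 98.7%). Among the 39 Hox genes, which set position along the body axis, 5 held 16 exonic regions and 15 of these were gains (median 31.3 points, beside 22.2 over all exonic gains). Of the 15 gains 8 lay in Hoxb3, all in strict islands, where 82.9% of exonic regions were gains. Hoxb6 had 4 gains, Hoxb4 had 2 and Hoxa6 had 1 (32.9% to 70.6%). Hoxb5, which lies between Hoxb6 and Hoxb4 on chromosome 11, held the loss (61.7% to 40.1%), 4121 bp from the nearest gain of Hoxb6.

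The other homeobox, T-box, Pax and Sox genes were mixed, with 7 losses and 8 gains in 10 of 133 genes. The T-box genes Tbx2 (3 regions, each by -31.6 to -31.3 points) and Tbx3 (21.1% to 3.11%) held losses, and Sox9 (3 regions), Sox5, Six4, Six5 and Irx3 held gains. Of 387 Zfp genes, most of which encode zinc finger DNA-binding proteins, 11 held 17 exonic regions, 15 of them gains in 9 genes with a median of 21.8 points. Of these gains 6 lay in Zfp697, all in strict islands, where 82.9% of exonic regions were gains. The 2 losses were in Zfp710 (52.5% to 18.5%) and in Zfp36, whose product binds messenger RNA (21.0% to 3.78%).

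A list of 98 ion channel genes, most of them voltage-gated and active in excitable cells, held 11 exonic regions in 6 genes, and all 11 were gains (median 25.2 points). Of the 11 regions 6 lay in Kcnh6 alone, all in strict islands, where 82.9% of exonic regions were gains. There was 1 each in Kcng4 (44.8% to 69.1%), Kcng1, Kcnj1 and Cacna1i. Kcnj1 encodes an inward rectifier channel. Of the 68 protocadherin genes only Pcdh1, Pcdh18 and Pcdhga12 held exonic regions. The latter 2 were gains of 16.6 and 18.2 points, so that the loss of this group was that of Pcdh1 alone.

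Matrix, cell cycle and methylation genes held between 1 and 5 exonic regions per group. Of 42 collagen genes 1 held a region, a gain in Col23a1 (28.9% to 45.2%), and of 38 genes of basement membrane and elastic fibres 4 did, with 4 gains in Tnxb, Mfap3 and Ltbp3 and a loss in the laminin gene Lama5 (54.5% to 24.4%). Among 15 genes of CDK inhibitors and G1 cyclins Cdkn2b held both regions, and among 51 cell cycle genes that the study listed from its expression data Cenpm and Lmna held 1 gain each. Among 17 genes that write, erase or read methylation the only region had its midpoint in coding exon 3 of Dnmt3a, the gene of a de novo methyltransferase. This region reached beyond the exon, and its 11 CpGs went from 74.9% to 37.2%. The junction and integrin genes Itga3 (66.4% to 19.8%), Pecam1 (48.0% to 10.4%) and Tjp1 (85.4% to 60.1%) held losses and Itgb4 a gain (69.3% to 89.8%). For comparison, 896 of 24963 autosomal genes (3.59%) held an exonic region.

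**Figure D5:**
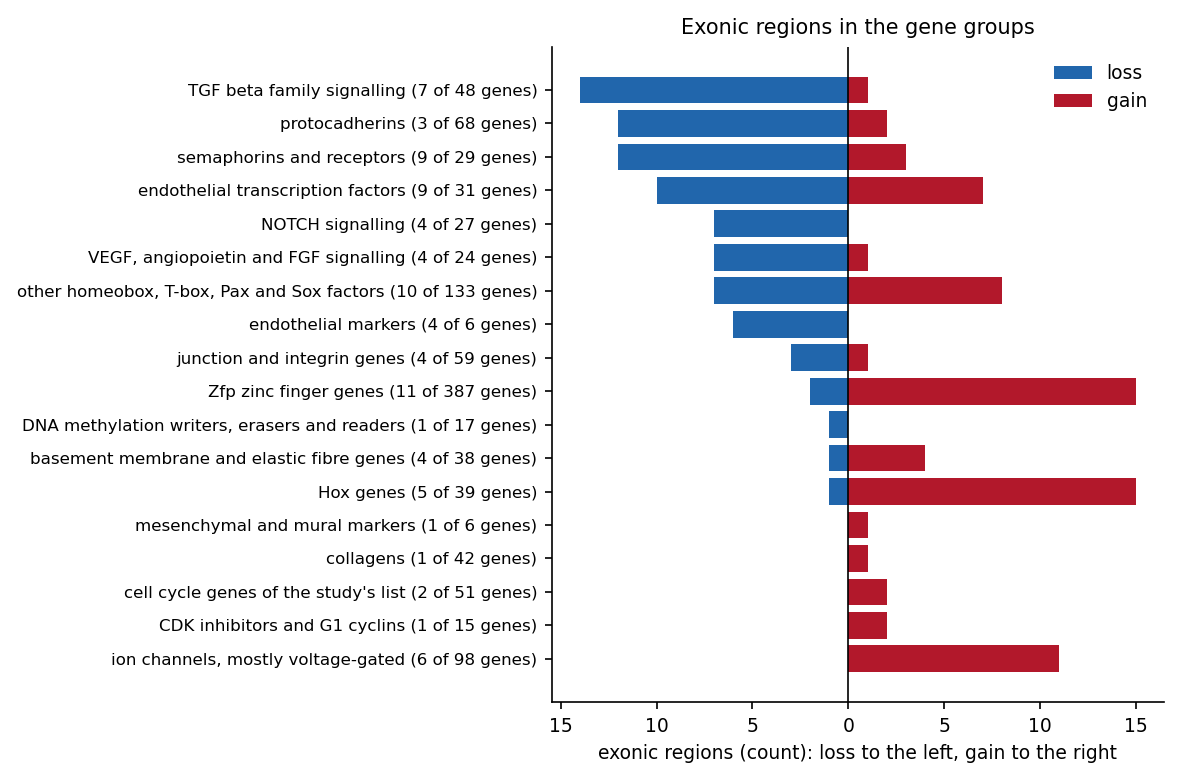
Number of exonic regions that lost (blue, to the left) or gained (red, to the right) methylation in each gene group with at least 1 such region; the labels give how many of the listed genes held an exonic region. TGF beta family genes held 14 losses and 1 gain, and Hox genes 1 loss and 15 gains. Groups share some genes and the counts carry no test.

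Genes that mark cell types were looked up for exonic regions, which does not measure their expression. Of 6 endothelial markers Pecam1, Tek, Kdr and Erg held exonic regions, and all 6 regions were losses, with differences of -37.9 to -32.0 points. Among all exonic regions 48.0% were losses, and 3 of these 6 lay in Kdr. The endothelial genes Cd93, Nr2f2 and Sox17, which were not among these markers, held only exonic gains. None of the 4 lymphatic, 6 haematopoietic and 6 epithelial markers held one. Of 6 mesenchymal and mural markers Acta2, the smooth muscle actin gene, held a gain (28.1% to 57.0%). The part of a changed mixture of cells in any value was not tested.

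The 8 genes with exonic regions of both directions were Gnas, Ctif, Tnk1, Neurl1a, Plcb2, Jak3, Ccm2l and Cdh20. Gnas, an imprinted gene that encodes a G protein subunit, had the widest gap, with a coding loss (47.5% to 11.3%) and a gain at a 5' UTR (25.8% to 47.5%). In Ctif a coding loss (28.8% to 5.35%) lay upstream of 2 gains in the last exon (45.1% to 71.5% and 4.97% to 36.9%). Tnk1 lost methylation in the 3' UTR (60.5% to 29.5%) and gained it in coding exon 7 (38.3% to 62.2%). Neurl1a gained it in exons 2 and 3 and lost it in the 3' UTR (37.5% to 10.1%), and in Plcb2 both regions lay in the 3' UTR. Between genes, 31 adjacent pairs of exonic regions of different genes lay within 20 kb, of which 25 had the same and 6 opposite directions. One of the 6 pairs was Rasip1, a gene of endothelial lumen formation (74.3% to 51.6%), and Mamstr (52.1% to 74.8%).

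Of the 22 amplicons that the study designed for MassARRAY measurements, 7 overlapped an exonic region. They were chosen by the study with these data known and are no independent sample of the list. The overlapped genes with losses were Plxna1, Sema3c, Smad6 (87.7% to 46.9%) and Smad7, and those with gains were Cdkn2b, Nr2f2 and Ccn1, which encodes a matricellular protein and was labelled with its older name Cyr61 (12.1% to 39.2%).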

How the data were processed

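Genomic DNA of sorted lung EC, 3 infant and 3 young adult samples, was sequenced by tagmentation-based bisulfite sequencing with 3 libraries per sample. According to the methods of the study and the submitters' processing notes, reads were aligned with BWA 0.6.1 to mm10, duplicates and the 9 bp at tagmentation ends were left out, and methylation was called at a base quality of at least 20. The authors required 8-fold coverage of a CpG in 2 or more samples of each group, compared the groups at each CpG in R 3.2.2 without smoothing, and called a region from 3 or more consecutive CpGs that each passed 0.05, with a mean difference of 10% or more. This selection favours large differences and CpG-dense stretches. The deposited values are the authors' mean methylation fractions per group and region, which were multiplied to percent here.

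Regions were placed by their midpoint on 45657 curated RefSeq transcripts of 26089 genes (GRCm38). Exon part was read in the order coding, 3' UTR, 5' UTR, non-coding, and exon numbers in the longest curated transcript, protein-coding first. CpGs, GC, repeats and islands were computed from the genome sequence, so a region may hold CpGs that the authors did not cover. For 17 regions the midpoint lay in exons of more than 1 gene. Shares have 95% Wilson intervals over regions, and directions were compared by two-sided Fisher's exact tests with conditional odds ratios (scipy 1.17.1). Such tests were checked on simulated counts of independent regions, which cannot show the effect of dependence between regions. With group means alone no test against the spread between mice could be made. Genes were named as those with the 5 largest losses and gains, the 5 losses and gains with the most CpGs, up to 10 genes with the most exonic regions, the genes of overlapping amplicons, up to 3 regions per gene group, and genes with both directions. Some of these are not reported here. Further genes were chosen after their values were seen. The regions, lists and names were chosen with earlier results of these data known. The alternatives were stricter filters on CpGs, size, transcripts and distance, joined regions and 1 region per gene.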

Additional observations from a re-analysis of the deposited data

How the results depend on the processing

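The direction of the exonic regions against intergenic ones held its call in all 9 alternatives. Against intronic regions the odds ratio of 0.623 held its call in 9 of 11 alternatives, missed the threshold with the largest region of each gene (0.932) and turned with the first region of each gene (1.08, Fisher's exact test, p = 0.294). It was 0.238 when only genes with an exonic region were kept and 0.778 outside CpG islands, and these last 3 alternatives were chosen after seeing the data. The value of 0.238 is no contrast within genes. Its exonic side kept 398 regions that were the sole region of their gene (33.4% losses), so those genes held no intronic region. The 756 exonic regions with others in their gene held 55.7% losses, beside 79.5% of the intronic regions kept. The share of loss was 48.0% and went to 68.7% among regions with at least 5 CpGs and to 58.4% at a difference of at least 20 points, since gains were smaller and held fewer CpGs. The island contrast missed the threshold at 5 or more CpGs (odds ratio 0.712), where 230 regions were left. The odds ratio of coding sequence against the 3' UTR, which passed no threshold in any alternative, went from 1.06 to 0.982 at 20 points. The median gain was 21.3 points with 1 region per gene, 21.3 with joined regions and 30.4 at 5 or more CpGs, and the median loss was -35.5 points at 5 or more CpGs. The share of regions that went with their gene was 85.1% when only regions over 1 kb away were counted. The remaining alternatives kept every result on its side of the threshold or within its interval.

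No paired analysis was possible because the deposited list holds group means only, and for the same reason leaving out each replicate was not run. Precision is limited by 3 samples per age, by unknown coverage per region, and by the many regions with only 3 CpGs.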
